A study of Mus musculus with 6 samples.

Results

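The interferon response genes are those that cells switch on when a type I or type II interferon binds its receptor, together with the transcription factors that carry the signal. A list of 37 such mouse genes was followed in bulk poly-A RNA sequencing of locus coeruleus, the noradrenergic nucleus of the pons. Its members were found by Ensembl identifier among the 56923 rows of the deposited table, and all 37 were present. The study set 3 wild-type (WT) libraries, numbered 62, 63 and 66, beside 3 libraries from 5xFAD transgenic mice, numbered 64, 65 and 79. The 5xFAD line carries human transgenes with familial Alzheimer's disease mutations, driven in neurons by Thy1 regulatory sequence, and the tissue of both groups was punched from brain slices. Not given in the sources used here are strain, age, sex, batch and whether each number is a separate mouse, so p-values measure only the spread between these samples. Values are normalized counts, which are reads per gene divided by 1 size factor per library. A log2 fold change is the difference of the group means (3 libraries each) of log2(normalized count + 1), also called the log2 difference, positive where 5xFAD was higher, and it understates the change of low genes.

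Type I interferons bind the IFNAR receptor, whose kinases JAK1 and TYK2 phosphorylate STAT2. STAT2 and IRF9 are subunits of the complex ISGF3, which binds interferon-stimulated response elements (ISRE) in the promoters of target genes. Among the targets are IRF7, which raises further interferon production, and effectors that bind viral RNA, conjugate the ubiquitin-like protein ISG15 or restrict membrane fusion. In brain with amyloid, interferon-responsive microglia have been described, while neurons, astrocytes and endothelial cells also carry the receptor.

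The libraries held 15158712 to 20079349 reads assigned to genes. A gene was tested where at least 3 libraries reached a normalized count of 10, which left 16411 genes and all 37 members. Thy1, whose sequence is part of the transgene cassette, checked the labels, with 8755, 7976 and 9089.6 in WT against 21875, 16885 and 22211 in 5xFAD. The mouse gene App, also planned for this check, did not separate the groups (log2 fold change −0.02, SE 0.06). The noradrenergic marker Dbh read 2187, 2492 and 1281 in WT against 1879, 2895 and 2089.5 in 5xFAD, so the labelled nucleus was present in every library and least in WT 66. That library also stood apart in markers of choroid plexus (4 genes), which summed to 1240.5 normalized counts there against 60.4 to 109.8 in the other 5. Markers of cerebellar neurons (6 genes) summed to 2939 to 9576 in WT and 4733 to 12129.5 in 5xFAD.

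The upstream sequences of the members were searched for the letters that interferon-activated factors bind. RefSeq promoter windows (build GRCm38.p6, 250 bases before to 50 after a gene's start) were found for 30 of the 37 members. The letters GAAANNGAAA, the core of the ISRE, were searched on both strands with overlapping matches kept, and stood in a window of 14 of the 30 members. Over all 27025 genes with a window the share was 3.99%. The letters TTCNNNGAA of the gamma-activated sequence (GAS), which reads the same on both strands and may overlap the ISRE, stood in 9 of the 30 members, against 9.55% of all genes. Upstream bases of 6 members are printed 5′ to 3′ on the gene's strand, with matches to either motif in capitals. They were chosen because 5 encode classical effectors with the letters close to the start, and Irf7 had the largest genotype difference.
Isg15 (chr4:156200819-156200906, minus strand): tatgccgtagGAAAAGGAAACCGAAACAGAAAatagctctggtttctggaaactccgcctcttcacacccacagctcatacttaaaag
Ifit1 (chr19:34640775-34640874, plus strand): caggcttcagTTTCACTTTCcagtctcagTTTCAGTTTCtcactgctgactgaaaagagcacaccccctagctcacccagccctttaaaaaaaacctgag
Ifit3 (chr19:34583363-34583462, plus strand): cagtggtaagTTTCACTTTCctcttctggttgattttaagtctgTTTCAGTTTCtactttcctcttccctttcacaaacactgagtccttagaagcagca
Ifit3b (chr19:34607759-34607858, plus strand): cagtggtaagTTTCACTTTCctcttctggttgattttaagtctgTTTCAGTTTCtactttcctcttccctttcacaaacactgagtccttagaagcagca
Oas1a (chr5:120907530-120907633, minus strand): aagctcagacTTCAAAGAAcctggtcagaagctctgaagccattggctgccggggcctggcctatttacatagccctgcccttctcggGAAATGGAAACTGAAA
Irf7 (chr7:141266425-141266674, minus strand): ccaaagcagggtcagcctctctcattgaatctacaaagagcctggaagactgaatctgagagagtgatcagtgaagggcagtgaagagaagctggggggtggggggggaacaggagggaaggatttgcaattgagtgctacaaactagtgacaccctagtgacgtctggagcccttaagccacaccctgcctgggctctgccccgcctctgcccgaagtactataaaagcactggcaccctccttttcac
In Isg15, 3 overlapping ISRE matches start at −78, −72 and −66 from the gene's start. Ifit1 holds matches at −104 and −85, both on the opposite strand. In Oas1a, the GAS letters at −98 stand upstream of overlapping ISRE matches at −20 and −14. The printed stretches of Ifit3 and Ifit3b, neighbouring duplicates of 1 gene, were identical at 100 of 100 bases, and their windows aligned without gaps at 201 of 268 bases (75%). The printed window of Irf7 holds neither set of letters, which says only that they are not in these 250 bases.

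Between genotypes, 0 of the 37 interferon response genes passed over all genes tested (limma, Benjamini-Hochberg adjustment, threshold 0.05). Over all 16411 genes 0.00609% passed, which was Thy1 alone. At an unadjusted p under 0.05 there was 1 member, Irf7, or 2.70% of the list, against 2.32% of all tested genes. The edgeR quasi-likelihood and DESeq2 tests on recovered reads also called 0 members, with 1 at an unadjusted p under 0.05 in each. Over all genes edgeR called 0.00609% and DESeq2 0.0244%, with 2.3% and 0.926% at an unadjusted p under 0.05. Leaving out libraries moved the count of members at an unadjusted limma p under 0.05 from 1 to 2 (without WT 62 or 5xFAD 65) or 3 (without WT 63). The share over all tested genes was not taken in these settings, so these counts have no background to be read against. The WT and 5xFAD libraries did not overlap in 2 members, 1 higher in 5xFAD (Irf7) and 1 lower (Ube2l6), or 5.41% of the list. Over all tested genes 7.42% did not overlap, 3.72% higher and 3.7% lower. These shares are near the background, so neither count is a result about the list.

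By the sign of the log2 fold change, a difference of mean logs, 21 of the 37 members were positive and 16 negative, with a median log2 fold change of 0.04 and a range of −0.42 to 0.90. By mean normalized counts 18 were higher in 5xFAD, since Irf9, Ifit1 and Eif2ak2 had slightly lower means there. Over all tested genes 50.2% were positive and the median was 0.00053. The split of the members moved with the libraries and the method. It was 27 of 37 positive without WT 66, 13 of 37 without WT 63 and 16 of 36 without 5xFAD 64. With edgeR it was 18 of 37, and with a filter of 50 normalized counts 12 of 25. The 95% interval excluded a 1.5-fold change in either direction for 21 members, or 56.8%, against 71.4% of all tested genes. Of the members 12 averaged under 50 normalized counts. In bulk tissue, fewer cells of a type and less RNA per cell cannot be told apart.

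**Figure D1:**
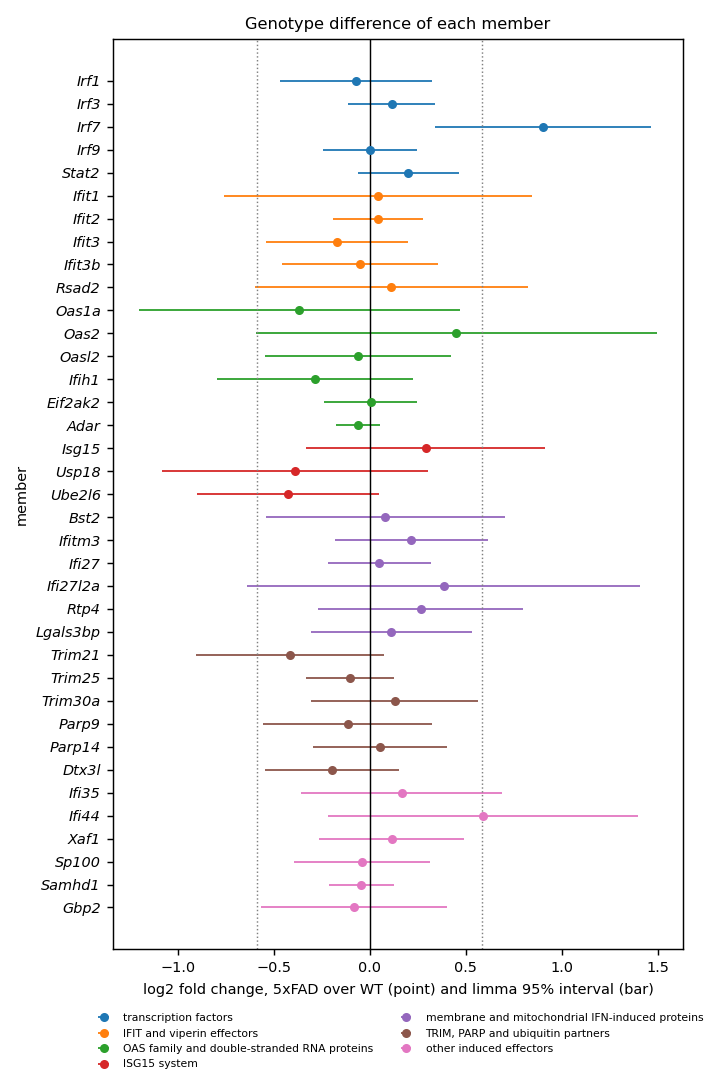
Log2 fold change (5xFAD over WT, x axis) of each of the 37 members (y axis), coloured by role; points are limma estimates, bars 95% intervals, and dotted lines mark 1.5-fold. The interval of Irf7 (0.34 to 1.47) lies above 0, those of the other 36 members cross 0, and 21 intervals lie within the dotted lines.

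Of the 5 transcription factors, Irf7 (ENSMUSG00000025498.16) stood apart from the other 4. IRF7 is the factor that amplifies interferon-alpha production and is itself induced by interferon. It read 20.4, 31.8 and 21.4 in WT against 52.0, 40.6 and 46.0 in 5xFAD, and every 5xFAD library lay above every WT library. The means were 24.6 ± 6.31 in WT against 46.2 ± 5.73 in 5xFAD (SD, n = 3 each), 1.88-fold higher, with a log2 difference of 0.90 (95% interval 0.34 to 1.47, SE 0.25). The unadjusted limma p was 0.0052 and the adjusted p was 0.9995, so the difference did not pass over all genes. These counts came from 21 to 46 reads per library. The 95% Poisson intervals, which cover counting error only, met in 5 of the 9 pairs of a WT and a 5xFAD library, those with WT 63 (22.4 to 43.9) or 5xFAD 65 (28.8 to 55.4). In the authors' deposited table, with the sign turned to 5xFAD over WT, Irf7 has a log2 fold change of 0.90 with an unadjusted p of 0.015 and an adjusted p of 0.9999. Leaving out any 1 library gave values of 0.791 to 1.10, with unadjusted limma p of 0.00227 to 0.0243.

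In the other 4 factors the groups overlapped. Irf9, the DNA-binding subunit of ISGF3, read 259, 225 and 274 in WT against 268, 259 and 231 in 5xFAD, with a log2 difference of 0.0017 (95% interval −0.24 to 0.25, SE 0.11). Stat2 read 337, 452 and 371 in WT against 416, 489 and 422 in 5xFAD, so its lowest 2 libraries were WT and its highest was 5xFAD, but WT 63 lay inside the 5xFAD range. Its log2 fold change was 0.20 (SE 0.12) and was 0.32 without WT 63, at an unadjusted limma p of 0.0132. That was the extreme of leaving out any 1 library, which gave 0.107 to 0.319, with unadjusted limma p of 0.0132 to 0.401. Irf3, the constitutive factor that nucleic acid sensors activate, read 313, 289 and 358 in WT against 332, 370.2 and 335 in 5xFAD (log2 fold change 0.11, SE 0.10). Irf1, the factor of the interferon-gamma arm, read 53.9, 59.4 and 69.4 in WT against 57.8, 57.2 and 58.0 in 5xFAD. The 5xFAD values of Irf1 lay within the WT range (log2 fold change −0.07, SE 0.18). For all of these except Irf7, the interval excluded a 1.5-fold change.

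**Figure D2:**
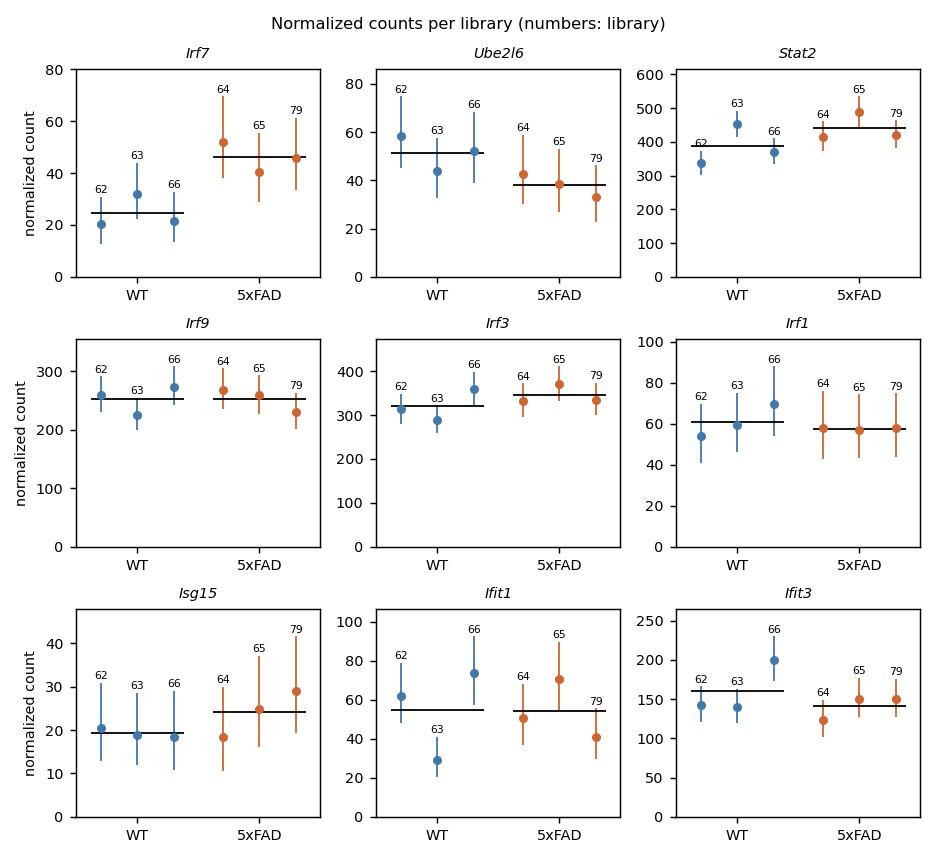
Normalized counts (y axis, from 0) of 9 members in each WT (blue) and 5xFAD (orange) library, labelled by number; bars are exact 95% Poisson intervals of the reads and black lines group means. The groups separate in Irf7 (20.4 to 31.8 against 40.6 to 52.0) and Ube2l6, and overlap in the other 7, with Ifit1 spread from 29.2 to 73.5 within WT.

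The IFIT proteins bind viral RNA that lacks the marks of the cell's own messages. Ifit1 read 62.2, 29.2 and 73.5 in WT against 50.8, 70.7 and 41.0 in 5xFAD, a 2.51-fold range within WT that held all of the 5xFAD values. The Poisson intervals of WT 63 (20.3 to 40.9) and WT 66 (57.5 to 92.6) did not meet. Its group means were 55.0 ± 23.0 in WT against 54.2 ± 15.1 in 5xFAD (SD, n = 3 each, log2 fold change 0.04, SE 0.35). Ifit2, an IFIT protein that forms complexes with the others, read 214, 252 and 234 in WT against 229, 257 and 235 in 5xFAD (log2 fold change 0.04, SE 0.10), and the groups overlapped.

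Ifit3 and Ifit3b encode near-identical proteins of the IFIT family. In GENCODE M21 transcripts, 51.2% of the 50-base words of Ifit3 also occur in Ifit3b, so the division of reads between them is uncertain. Ifit3 read 142, 140.2 and 200.1 in WT against 124, 151 and 150.0 in 5xFAD (log2 fold change −0.17, SE 0.16), with WT 66 above the other 5. Ifit3b read 115, 101 and 134 in WT against 102, 141 and 97.0 in 5xFAD (log2 fold change −0.05, SE 0.18), and 5xFAD 65 was the highest. Summed over the pair, WT read 257, 241 and 334 and 5xFAD read 225, 292 and 247, which overlap. Rsad2 encodes viperin, a radical SAM enzyme that makes a chain-terminating nucleotide, and read 24.1, 37.8 and 34.7 in WT against 46.2, 39.5 and 22.0 in 5xFAD (log2 fold change 0.11, SE 0.32). Its lowest and its highest library were both 5xFAD. No member of the 5 passed, and 3 had a positive log2 fold change, Ifit1 among them with a lower mean count in 5xFAD.

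Of the 6 members that sense or process double-stranded RNA, 2 had a positive and 4 a negative log2 fold change, none past the test. The 2′-5′ oligoadenylate synthetases, which activate RNase L, were near the floor of the filter. Oas1a ran from 10.4 to 23.5 and Oas2 from 5.16 to 17.0 normalized counts over the 6 libraries (log2 fold change −0.37, SE 0.37 and log2 fold change 0.45, SE 0.47). Of the 50-base words of Oas1a 57.6% occur in its duplicate Oas1g, which read 0 to 2.00. Oasl2, an interferon-induced relative, read 113, 76.6 and 136 in WT against 97.1, 119 and 90.0 in 5xFAD (log2 fold change −0.06, SE 0.22), and its lowest and highest libraries were both WT.

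Ifih1 encodes MDA5, the sensor of long double-stranded RNA. It read 76.1, 132 and 146 in WT against 92.4, 93.6 and 93.0 in 5xFAD, and the 5xFAD libraries lay close together between WT 62 and the other WT libraries. Its log2 fold change of −0.29 (SE 0.23) was −0.57 without WT 62, at an unadjusted limma p of 0.00552. That was the extreme of leaving out any 1 library, which gave −0.571 to −0.106, with unadjusted limma p of 0.00552 to 0.661. Eif2ak2 encodes the kinase PKR, which halts translation on double-stranded RNA, and had group means of 248 ± 29.0 in WT against 248 ± 5.08 in 5xFAD (SD, n = 3 each, log2 fold change 0.0055, SE 0.11). Adar, which edits adenosine to inosine and so hides the cell's own double-stranded RNA from MDA5, was the member with the most reads, up to 4392 in a library. It read 3735, 3778 and 3588 in WT against 3477, 3627 and 3530.2 in 5xFAD, with a log2 difference of −0.06 (95% interval −0.17 to 0.05, SE 0.05), the narrowest interval of the list. Of its annotated exon bases 16.8% overlap Chrnb2 on the other strand, and the counting strand is not given in the sources used here.

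The ISG15 conjugation members had the most negative median of the 7 role groups, at −0.39, but none of the 3 passed. Ube2l6 encodes the conjugating enzyme that attaches ISG15 to its targets. It read 58.5, 43.9 and 52.1 in WT against 42.8, 38.5 and 33.0 in 5xFAD, and every 5xFAD library lay below every WT library, the nearest pair being WT 63 and 5xFAD 64. The means were 51.5 ± 7.33 in WT against 38.1 ± 4.89 in 5xFAD (SD, n = 3 each), with a log2 difference of −0.42 (95% interval −0.90 to 0.05, SE 0.21) and an unadjusted limma p of 0.0741. Usp18 encodes the protease that removes ISG15 and also blocks IFNAR signalling, and read 21.4, 15.5 and 17.4 in WT against 16.2, 12.5 and 11.997 in 5xFAD (log2 fold change −0.39, SE 0.31). Its WT 63 lay below 5xFAD 64, so the groups overlapped. Isg15 itself read 20.4, 18.9 and 18.4 in WT against 18.5, 25.0 and 29.0 in 5xFAD (log2 fold change 0.29, SE 0.28), opposite in sign to its enzymes, with 5xFAD 64 level with the WT libraries.

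All 6 members that act at membranes or mitochondria had higher values in 5xFAD, with log2 fold changes from 0.05 to 0.39, and none passed. Without WT 63 the count was 3 of 6, with Bst2 at −0.20, Ifi27 at −0.04 and Lgals3bp at −0.07. Ifitm3, which blocks fusion of viruses in endosomes, had means of 114 ± 17.7 in WT against 133 ± 24.0 in 5xFAD (SD, n = 3 each, log2 fold change 0.22, SE 0.18). Bst2, or tetherin, which holds budding virions at the cell surface, had a log2 difference of 0.08 (95% interval −0.54 to 0.70, SE 0.28). The value of Bst2 was also negative without 5xFAD 64 (−0.03). Ifi27, a mitochondrial and nuclear-envelope protein, averaged 417 ± 61.1 in WT against 430.0 ± 46.8 in 5xFAD (log2 fold change 0.05, SE 0.12). Ifi27l2a, its strongly inducible relative, ran from 6.88 in WT 63 to 25.4 in 5xFAD 64. Rtp4, a receptor-transport chaperone, had 62.4 in 5xFAD 64 and 36.1 to 43.9 in the other 5 libraries (log2 fold change 0.26, SE 0.24). Lgals3bp, a secreted galectin-binding glycoprotein, was lowest in WT 63 at 220.2 and ran from 253 to 343 elsewhere (log2 fold change 0.11, SE 0.18). In all 6 of these members WT 63 was the lowest library.

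Of the 6 ubiquitin ligases and ADP-ribosyltransferases, 2 had a positive and 4 a negative log2 fold change. Trim21, the cytosolic antibody receptor, read 49.2, 57.6 and 64.3 in WT against 35.8, 53.0 and 40.0 in 5xFAD (log2 fold change −0.41, SE 0.22, unadjusted limma p of 0.0894). WT 62 lay below 5xFAD 65, so its groups overlapped by that pair. Trim25, which ubiquitinates the RNA sensor RIG-I, averaged 240.3 ± 18.7 in WT against 224 ± 10.9 in 5xFAD (log2 fold change −0.10, SE 0.10), and Trim30a, a mouse restriction factor, 56.5 ± 11.2 in WT against 61.2 ± 2.59 in 5xFAD (log2 fold change 0.13, SE 0.19). Parp9 and Dtx3l encode partners in a ubiquitinating complex and lie side by side, with 458 exon bases shared on opposite strands. Parp9 read 65.0, 68.0 and 100.1 in WT against 68.2, 71.8 and 71.0 in 5xFAD (log2 fold change −0.11, SE 0.20). Dtx3l read 142, 104 and 142 in WT against 111, 107 and 117 in 5xFAD (log2 fold change −0.20, SE 0.16). In both, the 3 5xFAD libraries lay close together inside the WT range. Parp14, a macrodomain ADP-ribosyltransferase, averaged 98.1 ± 14.6 in WT against 101 ± 4.76 in 5xFAD (log2 fold change 0.05, SE 0.16).

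The remaining 6 effectors were split 3 positive and 3 negative by log2 fold change. Ifi44, a protein induced strongly by type I interferon, read 16.7, 12.9 and 19.4 in WT against 19.6, 18.7 and 41.0 in 5xFAD. Only 5xFAD 79 was above 20 there, and the log2 fold change of 0.59 (SE 0.36) was 0.24 without that library. Samhd1, the dNTP hydrolase mutated in Aicardi-Goutières syndrome, read 429.9, 428 and 421 in WT against 436, 412 and 394 in 5xFAD, with a log2 difference of −0.04 (95% interval −0.21 to 0.12, SE 0.08). Gbp2, a guanylate-binding GTPase of the interferon-gamma arm, ran from 54.2 to 90.9 in WT and 57.8 to 69.7 in 5xFAD (log2 fold change −0.08, SE 0.22). Sp100, a nuclear body protein, averaged 81.8 ± 9.03 in WT against 79.4 ± 4.20 in 5xFAD (log2 fold change −0.04, SE 0.16), and Xaf1, a pro-apoptotic factor, 96.5 ± 18.0 in WT against 103 ± 6.79 in 5xFAD (log2 fold change 0.11, SE 0.17). Ifi35, a leucine-zipper protein, averaged 39.8 ± 8.42 in WT against 44.6 ± 7.05 in 5xFAD (log2 fold change 0.17, SE 0.23).

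Levels can be set beside each other only per length, and are given here as normalized counts per kilobase of annotated exon (GENCODE M21 gene models). On that scale the highest level was that of Adar (456 in WT and 437 in 5xFAD), followed by Ifi27 (284 in WT and 293 in 5xFAD) and Ifitm3 (168 in WT and 196 in 5xFAD). Irf3 (93.0 in WT and 100.4 in 5xFAD) and Ifit3 (92.1 in WT and 81.1 in 5xFAD) lay near each other. The lowest levels were those of Oas2 (2.25 in WT and 2.93 in 5xFAD) and Ifi44 (2.67 in WT and 4.32 in 5xFAD). Oas2, Ifi44, Usp18, Irf7 and Rsad2 were the 5 lowest of the 37 in WT on this scale, with Irf7 at 6.51 in WT and 12.2 in 5xFAD.

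The clearest variation of the list was between libraries of 1 genotype. In 19 of 37 members WT 63 was the lowest of the 6 libraries, and in 15 WT 66 was the highest. Over all tested genes WT 63 was the lowest in 15.6% and WT 66 the highest in 18.6%. The median distance of the members from their 6-library mean was −0.17 in WT 63 and 0.17 in WT 66 on the log2 scale. It was −0.05 in WT 62, −0.00038 in 5xFAD 64, 0.0050 in 5xFAD 65 and −0.03 in 5xFAD 79. The median over all tested genes was within 0.0047 of 0 in every library.

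Set directly beside each other, 30 of 37 members were higher in WT 66 than in WT 63, with a median log2 difference of 0.33, against 50.9% of all tested genes and a median of 0.0051. For 7 members the Poisson intervals of the pair did not meet with WT 66 higher (Irf3, Ifit1, Ifit3, Oasl2, Ifi27, Lgals3bp and Gbp2), and for 1 with WT 66 lower (Stat2). Over all tested genes these shares were 11.2% and 11.0%. The range within WT was wider than the range within 5xFAD in 29 members, or 78.4%, against 50.6% of all tested genes. The median range of a member was 0.45 in WT and 0.31 in 5xFAD, and that of all tested genes 0.24 in each, but the members had fewer reads (median normalized count 80.6 against 319). The difference between these libraries was noticed in the data, has 1 library on each side and was given no test.

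Markers of several cell types moved between the same libraries. Endothelial markers (5 genes) summed to 3025 in WT 63 and 3552 in WT 66, and microglial markers (7 genes) to 3498 and 4060.4, each the lowest and highest of the 6. Over the groups, microglial markers summed to 3498 to 4060.4 in WT and 3652 to 3998 in 5xFAD, and endothelial markers to 3025 to 3552 and 3353 to 3410.2. Choroid plexus markers read 67.1 in WT 63 and 1240.5 in WT 66, cerebellar markers 9576 and 3361, and red blood cell markers (5 genes) 1961 and 3140.5. Noradrenergic markers (7 genes) read 11082 in WT 63 and 5863 in WT 66, oligodendrocyte markers (5 genes) 198435 and 250548, and neuronal markers (5 genes) 59869 and 61018. The lowest and highest oligodendrocyte sums of the 6 libraries were those of 5xFAD 65 (190890) and 5xFAD 79 (300215). Between genotypes, 0 of 62 tested marker genes of all lists passed with limma, and 5 (8.06%) had an unadjusted p under 0.05, against 2.32% of all tested genes. Gfap, the astrocyte filament, read 1576, 2117 and 1493 in WT against 3074, 2397 and 2532 in 5xFAD (log2 fold change 0.63, SE 0.15, unadjusted limma p of 0.00451), and was called by DESeq2 (adjusted p 0.0106). The 5 astrocyte markers, Gfap among them, were split 3 positive and 2 negative by log2 fold change, with a median of 0.01. The 6 markers of meningeal fibroblasts all had positive log2 fold changes, among them Lum (log2 fold change 1.07, SE 0.25, unadjusted limma p of 0.00167) and Col1a1 (log2 fold change 0.41, SE 0.14, unadjusted limma p of 0.0154), whose groups did not overlap. The 6 together summed to 2264 to 2442 in WT and 2408 to 3424 in 5xFAD. All markers were also positive in the lists of cerebellar neurons (6 genes), oligodendrocytes (5 genes) and mural cells (5 genes). All 5 red blood cell markers were negative. The cerebellar log2 fold changes ran from 0.27 to 2.23, with a median of 1.02 against 0.33 for the fibroblast markers. In none of the cerebellar markers were the groups apart. Ighm, the immunoglobulin heavy chain of B cells, was lower in every 5xFAD library (log2 fold change −0.35, SE 0.14, unadjusted limma p of 0.0351), and Cbln1, a cerebellar granule cell gene, overlapped (log2 fold change 0.27, SE 0.10, unadjusted limma p of 0.0307). Markers of T and NK cells (6 genes) summed to 7.74 to 10.2 in WT and 11.6 to 13.0 in 5xFAD, apart but at very low counts. The part of these cells in the members' values was not tested. In the neutrophil list, Ly6g and Mpo were at 0 throughout.

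**Figure D3:**
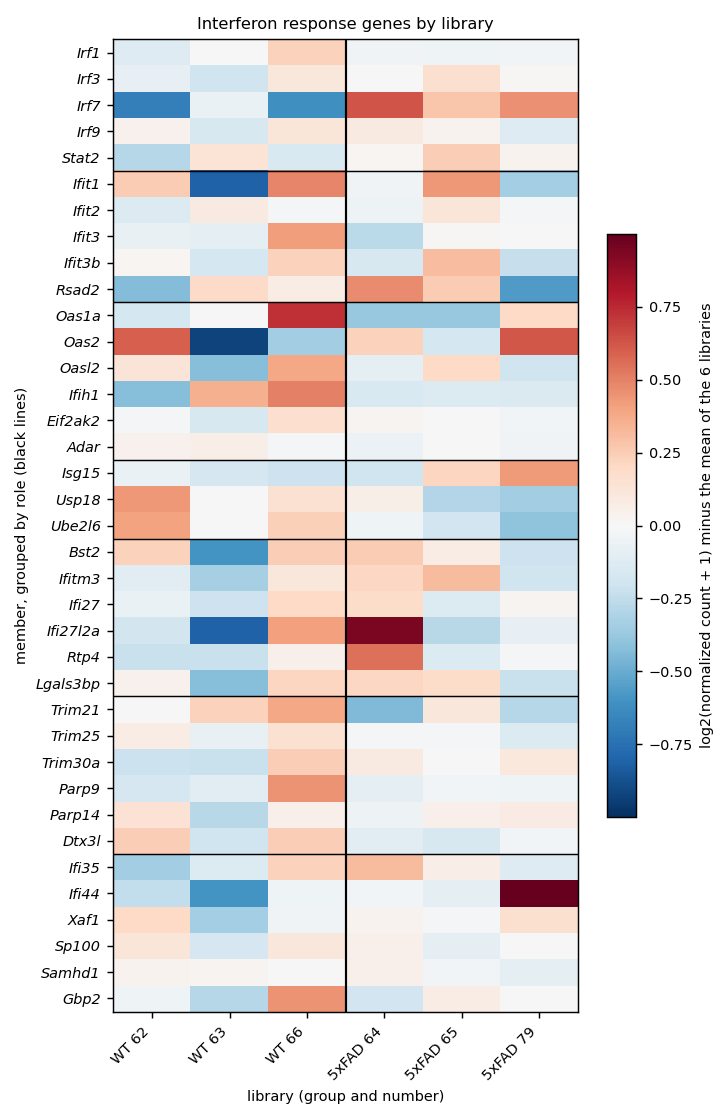
Each cell is the log2(normalized count + 1) of a member (rows, grouped by role) in a library (columns, WT left and 5xFAD right of the black line) minus its mean over the 6 libraries. WT 63 is the lowest library in 19 rows and WT 66 the highest in 15, while Irf7 is the row with all WT libraries below all 5xFAD libraries.

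**Figure D4:**
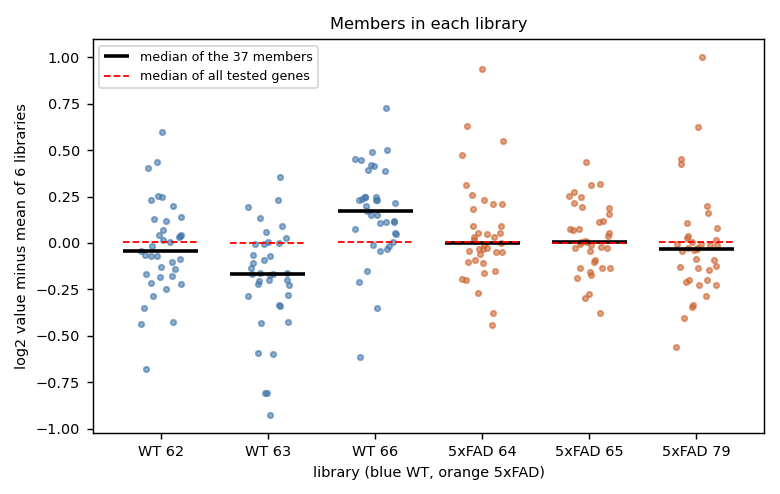
Distance of each of the 37 members (points) from its mean over the 6 libraries, on the log2 scale (y axis), by library (x axis; WT blue, 5xFAD orange). The black line, the median of the members, is at −0.17 in WT 63 and 0.17 in WT 66 and close to 0 in the 5xFAD libraries, and the dashed red line is the median of all tested genes.

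The rest of the pathway was read from lists chosen with earlier results known. Interferon transcripts were at or near 0. Of 21 ligand genes, Ifnb1 and Ifng among them, 19 were at 0 in every library. Ifnab reached 1.00 and Ifnz 2.00 normalized counts. A library with 0 reads allows up to 3 reads by counting error alone (one-sided limit at 95%).

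Receptors and kinases were bounded closely. All 11 genes of the receptors and the JAK-STAT kinases and factors were tested, 8 with a positive and 3 with a negative log2 fold change, and for 10 the interval excluded a 1.5-fold change. Ifnar1 read 627, 633 and 621 in WT against 639, 582 and 696 in 5xFAD (log2 fold change 0.02, SE 0.08). Ifnar2, the other receptor chain, read 205, 243 and 272 in WT against 209, 246 and 228 in 5xFAD (log2 fold change −0.07, SE 0.13). In both the groups overlapped. Tyk2 was the gene of the list whose groups did not, at 178, 194 and 167 in WT against 240.4, 204 and 199 in 5xFAD (log2 fold change 0.25, SE 0.12, unadjusted limma p of 0.0629). That is 9.09% of the list, near the 7.42% of all tested genes. Ifnlr1, the interferon-lambda receptor, had a log2 fold change of −0.41 (SE 0.33), Jak1 −0.05 (SE 0.06) and Jak2 0.07 (SE 0.09).

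Nucleic acid sensing genes, which lie upstream of interferon, were split 9 positive and 9 negative among 18 tested, and 0 passed. Trex1, the exonuclease that removes cytosolic DNA, read 35.3, 36.1 and 34.7 in WT against 61.2, 53.0 and 41.0 in 5xFAD (log2 fold change 0.52, SE 0.22, unadjusted limma p of 0.0387), with every 5xFAD library above WT. Dhx58, which encodes the RIG-I relative LGP2, read 29.7, 14.6 and 42.9 in WT against 54.3, 46.8 and 40.0 in 5xFAD (log2 fold change 0.79, SE 0.36, unadjusted limma p of 0.0544). Here WT 66 lay above 5xFAD 79. Sting1, the adaptor of cytosolic DNA sensing, was lower in every 5xFAD library at 37.1, 33.5 and 34.7 in WT against 16.2, 33.3 and 29.0 in 5xFAD (log2 fold change −0.47, SE 0.29). Tlr9 was also lower in every 5xFAD library (log2 fold change −0.33, SE 0.32). Trex1, Sting1 and Tlr9 made 3 of the 18 tested, or 16.7%, against 7.42% of all tested genes, and the list was given no test. Tlr3 had a log2 difference of −0.29 (95% interval −0.70 to 0.12, SE 0.18). Zbp1 was under the filter at 0 to 5.16.

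Negative regulators had 6 positive and 3 negative log2 fold changes among 9 tested, with Usp8 at −0.16 (SE 0.07, unadjusted limma p of 0.0408), Irf2bp2 at 0.14 (SE 0.08), Irf2bp1 at 0.15 (SE 0.10) and Ptpn2 at 0.09 (SE 0.12). Of 69 further interferon-stimulated genes found in the table, 50 were tested, with 21 positive, 29 negative and a median log2 fold change of −0.04. Gbp4, a guanylate-binding protein, read 66.9, 72.3 and 91.9 in WT against 33.5, 49.9 and 56.0 in 5xFAD (log2 fold change −0.74, SE 0.23, unadjusted limma p of 0.0110), each 5xFAD library below each WT library. Its relative Gbp5 had 71.6 ± 17.3 in WT against 50.5 ± 16.7 in 5xFAD (SD, n = 3 each, log2 fold change −0.52, SE 0.27). Slfn8 read 18.6, 13.8 and 16.3 in WT against 30.0, 18.7 and 19.0 in 5xFAD (log2 fold change 0.43, SE 0.31), higher in each 5xFAD library, with WT 62 and 5xFAD 65 the nearest pair. Gbp4 and Slfn8 were the 2 of the 50 whose groups did not overlap, or 4%, against 7.42% of all tested genes. Znfx1 had a log2 fold change of 0.11 (SE 0.10). Mx1, a classical antiviral GTPase, was under the filter at 4.64, 4.30 and 4.08 in WT against 2.31, 1.04 and 1.000 in 5xFAD. None of these genes passed, and the limma adjusted p was 0.9995 for Tyk2, Trex1, Dhx58, Usp8 and Gbp4 alike.

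The members with a promoter window were also set out by the ISRE letters. Among the 14 members with the letters, 8 had a positive log2 fold change, with a median of 0.02. Among the 16 with a window that lacks them, 8 were positive and the median was −0.02. WT 63 was the lowest library in 6 of the 14 and 8 of the 16, and WT 66 the highest in 8 and 5. The median range within WT was 0.49 with the letters and 0.38 without, and within 5xFAD it was 0.49 with the letters and 0.17 without. Log2 ranges widen at low counts, and these classes were not matched for read depth. Its part in the ranges was not tested.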

How the data were processed

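Bulk poly-A RNA sequencing of locus coeruleus punches was read from 1 deposited table with 3 WT and 3 5xFAD library columns, grouped by the sample titles. STAR, RSEM and DESeq2 are named, with build mm39, in the submitters' processing notes. Their versions and roles, the annotation and the strand setting were not given in the sources used here. The file is named for TPM, but the deposited library columns hold a signal, reads per gene over a size factor: in every library 100% of the values were whole multiples of 1 step (tolerance 0.001). Multiplying by the size factors gave back whole reads, and median-of-ratios factors recomputed from those reads equalled the steps (largest difference 3.11e-15). The same deposited table also carries the authors' log2 fold changes and SEs, a test score, and a p-value before and after adjustment, per the file headers. That fold change is WT over 5xFAD, as the library columns show.

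The planned tests allowed for TPM or normalized counts, and genes entered with 10 or more normalized counts in 3 or more libraries. Log2(normalized count + 1) was fitted with limma 3.58.1 in R 4.3.3 with variance trend and robust moderation, adjusted over all 16411 tested genes by the Benjamini-Hochberg method. The fit was tested on simulated data. Alternatives were other pseudocounts, filters and scalings, edgeR 4.0.16 and DESeq2 1.42.0 on the recovered reads, and leaving out each library. The members, the gene lists, the naming rule and all settings were chosen with earlier results of these data known. By that rule all members are named, those apart between groups or at an unadjusted p under 0.05, the transcription factors, the IFIT genes and Isg15 with every library, and of the other pathway lists up to 4 genes with the smallest p plus Ifnar1, Ifnar2, Ifnb1, Mx1 and a gene that is not reported here. The other genes printed by library or singled out were chosen after their values were seen. Symbols came from a gene name table that paired 91.5% of identifiers; Rigi and Sting1 were matched under their older symbols Ddx58 and Tmem173, and Mnda was not matched. Exon lengths and shared 50-base words came from GENCODE M21 (GRCm38), promoters from RefSeq. Depth was 15158712 to 20079349 reads per library, without molecular identifiers, so Poisson intervals (exact, 95%) cover counting error only. Figures were drawn with Python 3.11.15 and matplotlib 3.10.9.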

Additional observations from a re-analysis of the deposited data

How the results depend on the processing

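Over 15 alternative settings no interferon response gene passed, with a smallest adjusted p of 0.815. The count of all genes called, 1 with limma and 1 with edgeR, was 0 without trend and robust moderation, 4 with DESeq2, and 0 to 2 when single libraries were left out (0 without WT 62, WT 63, 5xFAD 64 or 5xFAD 79, and 2 without 5xFAD 65). Without WT 66, and without a filter on low values, the 1 gene called was another than Thy1. At an unadjusted limma p under 0.05 there were 2 members without trend and robust moderation, a setting in which the share over all tested genes was not taken. Irf7 kept its direction and an unadjusted p under 0.05 in the 14 settings that tested it (log2 fold change 0.79 to 1.10, p 0.00227 to 0.0243), but the filter at 50 counts dropped it. Of 540 member values under an alternative 503 kept their direction, and 37, in 16 members, turned sign; the cause was not tested. Other than by leaving out a library, these were Irf9 with TMM scaling (−0.000429), edgeR (−0.00184) and quantile normalization (−0.0104), Ifit1 with edgeR (−0.0142) and DESeq2 (−0.0158), and Eif2ak2 with edgeR (−0.00133) and quantile normalization (−0.0163). With single libraries left out, log2 fold changes ran from −0.153 to 0.0276 for Irf1, −0.0781 to 0.0648 for Irf9, −0.350 to 0.300 for Ifit1, −0.0169 to 0.0989 for Ifit2, −0.219 to 0.0533 for Ifit3b, −0.0982 to 0.421 for Rsad2, −0.291 to 0.118 for Oasl2 and −0.0747 to 0.0917 for Eif2ak2. They ran from −0.196 to 0.223 for Bst2, −0.0409 to 0.163 for Ifi27, −0.0705 to 0.254 for Lgals3bp, −0.228 to 0.0796 for Parp9, −0.0701 to 0.139 for Parp14, −0.0264 to 0.243 for Xaf1, −0.133 to 0.0101 for Sp100 and −0.244 to 0.124 for Gbp2. No paired analysis was possible because the groups share no replicate number. Reads of a member in a library ran down to 6, and for 16 of the 37 members the 95% interval includes a 1.5-fold change.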
